A study of Citrullus lanatus with 36 samples.

Results

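Cytochrome P450 genes were followed in the flesh of oriental melon (Cucumis melo, cultivar BY9H) by RNA-seq. The deposited table describes 147 genes with the words cytochrome P450, of which 28 were left out because their KEGG pathway places them in cutin, phenylpropanoid, carotenoid, linolenic acid or linoleic acid metabolism. The remaining 119 of 25121 named genes (0.474%) are the members described here. They comprise 115 numbered and 2 unnumbered P450 genes and 2 genes for NADPH-cytochrome P450 reductase, the flavoprotein that passes electrons to P450 enzymes. WT fruits carry the intact NAC gene CmNOR (NON-RIPENING). Cmnor fruits are homozygous for a single CRISPR/Cas9-edited line with a deletion in the NAC domain, and CmNOR/Cmnor fruits are heterozygotes from a cross of that line with its BY9H parent. Flesh of each genotype was taken 33, 36 and 39 days past pollination (DAP) and from fruits kept for 6 d after harvest at 36 DAP. Each of the 12 groups has 3 libraries, so that storage was set against 36 DAP and each genotype against WT of the same stage. All 3 genotypes share the BY9H background, and a single edited line stands for the loss of CmNOR. Per the study's methods, melons of each genotype were sampled in triplicate at each time of storage, but the labels do not tie a library to a single fruit, and p-values measure the spread between these libraries, which may be technical.

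P450 enzymes are haem proteins of the endoplasmic reticulum, and in some families of the plastid, that insert an oxygen atom into a substrate with electrons from NADPH. Plants hold large numbers of them, named by a family number and a subfamily letter from sequence similarity, and related families are joined into clans. Some families act in hormone and sterol metabolism and are few in number, while clan 71 has grown by gene duplication and serves specialised metabolites such as terpenoids, alkaloids, phenolics and aldoximes. CYP71A1 was first isolated from ripening avocado (Persea americana) flesh, in which its transcript accumulates during ripening.

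Values are FPKM, fragment counts scaled to transcript length in kilobases and to the mapped reads of the library, which can be compared between genes. The libraries held 17.4 to 36.7 M fragments as estimated from the spacing of low values, of which 45.9 to 59.99% fell on whole steps, so that 1 fragment in a transcript of 1 kb was worth 0.0272 to 0.0574 FPKM. Replicate libraries correlated at r = 0.968 to 0.995 over 15407 genes. The flesh differed widely between genotypes in other gene groups. The summed level of 64 photosystem and antenna genes was 22440.4 to 25241 FPKM in WT against 1589.8 to 1666 FPKM in Cmnor at 33 DAP, and that of 17 ACC oxidase genes, which make ethylene, was 13502 to 14870.1 and 644 to 674 FPKM. The summed level of 33 phloem protein genes was 383 to 509 FPKM in WT, 1332 to 3153 FPKM in CmNOR/Cmnor and 4635 to 7212 FPKM in Cmnor at 33 DAP, with 7, 6 and none of the 33 genes at 0. Seed storage protein and oleosin genes summed to 42.4 to 109.6 FPKM in every library. Their part in the results below was not tested. In such bulk flesh, fewer cells of a type and less RNA per cell cannot be told apart.

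Of the P450 genes, 115 carry a family number in their description and fall into 22 families, of which 6 have a single member. Clan 71 holds 80 genes, clan 72 holds 17, clan 85 holds 10, clan 86 holds 5, and CYP97, CYP710 and CYP711 hold 1 each. Family 71 is the largest with 27 genes, followed by families 81 and 82 with 13 each, 89 with 10, 72 with 9 and CYP736 with 7. Family names are as described in the table, and of 110 genes with a numbered Swiss-Prot match, 99 had the same family in both. Among the 11 others are MELO3C025798.2, MELO3C025797.2 and MELO3C022665.2, which are named CYP71A1-like, match family 92 in Swiss-Prot and are assigned by KEGG to a hydroxylase of brassinosteroid synthesis. They are counted under family 71 here, by the name in the description. Of the 119 members, 75 reached a mean of 1 FPKM in at least 1 group, 42 reached 10 FPKM and 12 reached 100 FPKM. The 44 others stayed below 1 FPKM in every group, and 1 gene of family 89 was at 0 in all 36 libraries, which left 118 members for the tests. On the map of the melon genome (DHL92 v3.6.1) used by the table, 114 members were placed, and 61 of them stood in 10 arrays of at least 3 members with no more than 3 genes between neighbours. The sources used here do not give how fragments shared by near-identical neighbours were assigned, and levels of single genes within an array are less certain than their sums.

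The summed level of the P450 genes, without the reductases, was lower in Cmnor than in the other genotypes at every stage. At 33 DAP it was 3884, 4066 and 3540.2 FPKM in the 3 WT libraries, 5125, 7346 and 4419 FPKM in CmNOR/Cmnor fruits and 953, 1175 and 976 FPKM in Cmnor. The Cmnor libraries lay below all others, with no overlap at any stage. At 36 DAP the sums were 2877 ± 43.9 FPKM in WT, 3367 ± 10.3 in CmNOR/Cmnor and 1015 ± 9.77 in Cmnor (mean ± SD, n = 3, as for all levels given with ±). At 39 DAP they were 2927 ± 98.1, 3770.4 ± 499 and 989.6 ± 43.5 FPKM, and after storage 3266 ± 568, 3489 ± 204 and 854 ± 44.3 FPKM. Family 71 made up 85.5 to 92.1% of the sum in the 8 WT and CmNOR/Cmnor groups and 30.6 to 33.0% in the 4 Cmnor groups. These shares rest on the names in the description. A single gene, MELO3C025798.2, which matches family 92 in Swiss-Prot, gave 24.5 to 50.4% of the sum in the 8 WT and CmNOR/Cmnor groups. MELO3C022665.2, with the same match, gave 13.0% in Cmnor at 36 DAP. In WT at 33 DAP MELO3C025798.2 gave 42.7% of the sum, and the 5 highest genes gave 79.7%. In Cmnor at the same stage the highest gene was MELO3C012165.2 of family CYP749 with 13.0% of the sum, and the 5 highest gave 52.3%.

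**Figure D1:**
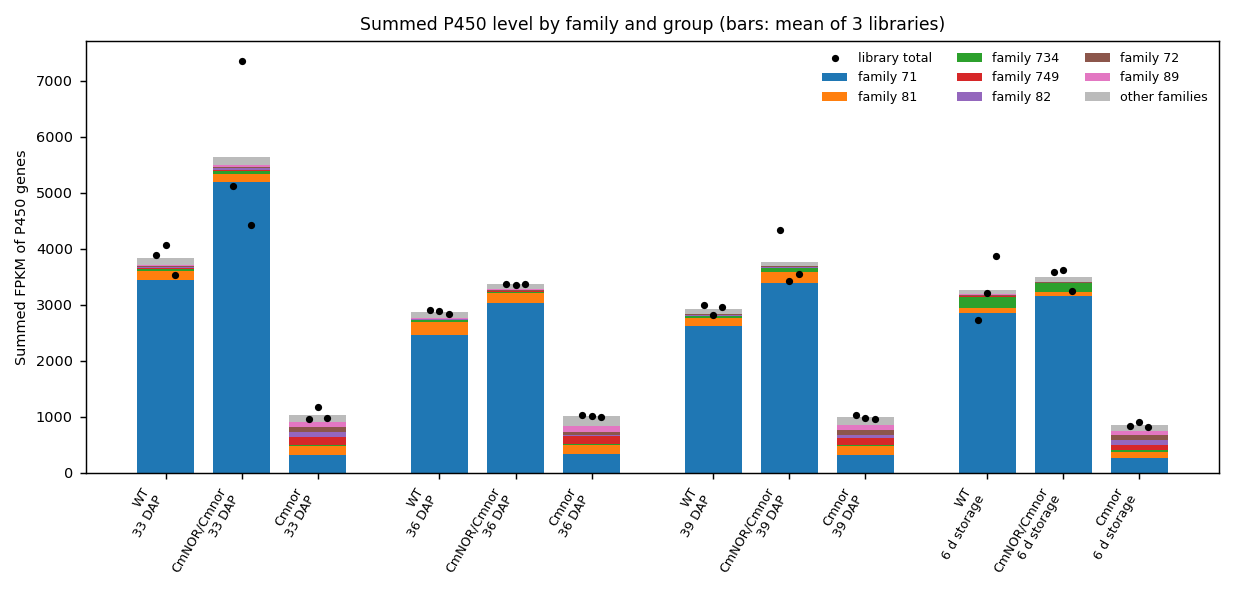
Summed FPKM of the P450 genes, without the reductases, in the 12 groups, stacked by family, with bars for the mean of 3 libraries and black points for the library totals. Family 71, which by the name in the description includes MELO3C025798.2, fills most of each WT and CmNOR/Cmnor bar, and the Cmnor totals lie between 818 and 1175 FPKM.

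Cmnor and WT differed in 47 of 118 members at 33 DAP, where a gene counted as called if its Benjamini-Hochberg adjusted p in limma was under 0.05 and its log2 fold change reached 1 or -1. Fold changes are those of log2(FPKM + 1), so that for low genes they come out too small. Among all 24901 genes tested 29.1% passed these thresholds at that stage, 22.8% as higher and 6.37% as lower in Cmnor. Of the members, 22 were higher and 25 lower in Cmnor. At 36 DAP 21 were higher and 21 lower (29.7% of all genes called, 22.9% higher and 6.79% lower), at 39 DAP 21 and 22 (28.4%, 19.8% higher and 8.65% lower), and after storage 28 and 20 (28.2%, 21.4% higher and 6.81% lower). The share of members called lower was thus 16.9 to 21.2%, above that of all genes at each stage, while the share called higher, 17.8 to 23.7%, was near that of all genes. The median log2 fold change of the members was 0.00 to 0.02 at the 4 stages, and that of all genes 0.06 to 0.21. Over the 4 stages, 13 members were higher and 13 lower in Cmnor at every stage, against 10.49% and 2.94% of all genes tested. A further 53 members were called at none, but 43 of these had no group mean of 1 FPKM and so could not reach the fold threshold on this scale. The other 10 had a group mean of at least 1 FPKM. Called differences of both directions occurred in 3 members. The 4 comparisons use separate libraries.

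The direction of the difference varied with the family. Of the 13 members lower at all 4 stages, 10 belong to family 71, and the others are a gene each of families CYP716, CYP734 and CYP89. Of the 27 genes of family 71, 15 were lower and 2 higher in Cmnor at 33 DAP, 11 and 2 at 36 DAP, 13 and 3 at 39 DAP, and 12 and 4 after storage. Of the 91 tested members outside family 71, 10 were lower and 20 higher at 33 DAP, which is 10.99% and 22.0%. After storage 8 were lower and 24 higher. Family 72 had 4 higher and 1 lower of 9 genes at 33 DAP, and its 3 genes higher at every stage are named CYP72A219. Both members of the pair MELO3C012165.2 and MELO3C012166.2 of family CYP749 were higher at all 4 stages. In family 82, 1 of 13 genes was higher at 33 DAP and 4 after storage.

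**Figure D2:**
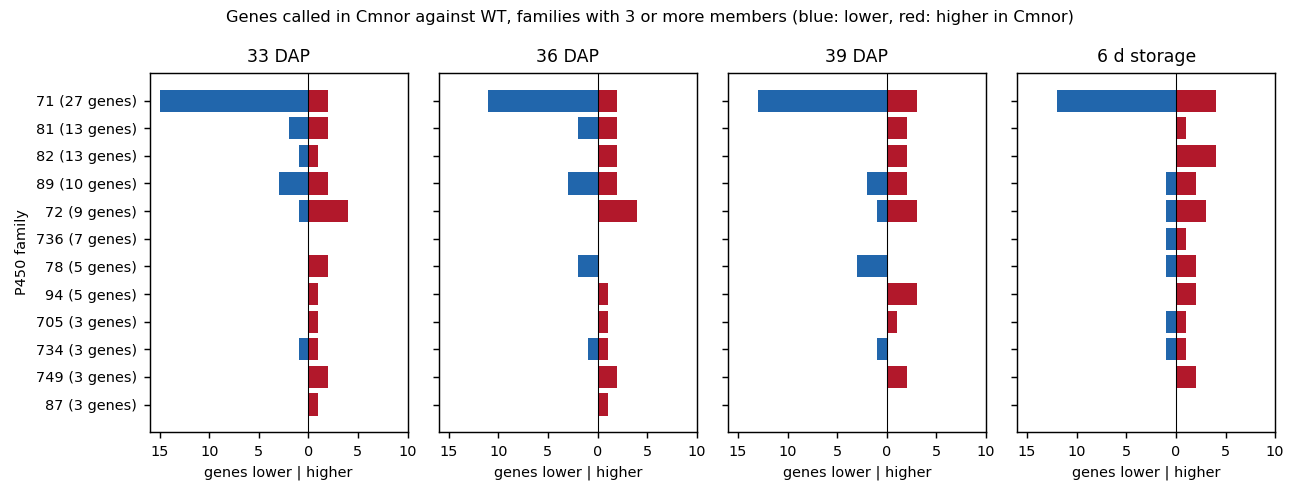
Number of genes called in Cmnor against WT at the 4 stages, for P450 families with 3 or more members, with lower genes to the left in blue and higher genes to the right in red. Family 71 is the only one of these families with more than 3 lower genes at any stage, with 11 to 15 of 27.

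The gene with the highest level, MELO3C025798.2 (CYP71A1-like; chromosome 4, 18620250 to 18622212, plus strand), was nearly silent in Cmnor. At 33 DAP its levels were 1628, 1737 and 1537 FPKM in WT, 2336, 2763 and 2117 FPKM in CmNOR/Cmnor fruits and 3.19, 2.995 and 2.61 FPKM in Cmnor. WT and Cmnor libraries were 557 ± 65.3-fold apart (log2 fold change -8.70 ± 0.23, adjusted p = 3.6e-22; ± after a log2 value is its standard error). The level in WT was 1634 ± 100.4 FPKM at 33 DAP, 1184 ± 26.0 FPKM at 39 DAP and 799 ± 25.9 FPKM after storage, and the change from 33 to 39 DAP did not pass the test (log2 fold change -0.46 ± 0.23, adjusted p = 0.12). That standard error takes in the spread of all 12 groups, and the WT libraries at 33 and 39 DAP did not overlap. In CmNOR/Cmnor it was 1625 FPKM at 39 DAP and 1298 FPKM after storage, above all WT libraries of the same stage, without reaching a log2 difference of 1 at any stage. In Cmnor it stayed between 2.61 and 10.4 FPKM in all 12 libraries. Its neighbour MELO3C025797.2, of the same name, did not exceed a group mean of 1.46 FPKM.

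A run of 9 CYP71A1-like genes on chromosome 12 (24945631 to 25006452) held 6 genes lower in Cmnor at 33 DAP. Summed over the run, WT had 1257 FPKM, CmNOR/Cmnor 1848 FPKM and Cmnor 191 FPKM at 33 DAP, and after storage 1285, 1195 and 181 FPKM. MELO3C002311.2 gave most of the difference, with 689.6, 705.7 and 575 FPKM in WT, 959.9, 1269 and 689 FPKM in CmNOR/Cmnor fruits and 1.29, 1.04 and 0.874 FPKM in Cmnor at 33 DAP (log2 fold change -8.31 ± 0.24, adjusted p = 2.3e-21). It was the most abundant P450 of stored WT fruit, at 891 ± 133 FPKM against 250.1 ± 30.7 FPKM at 36 DAP (log2 fold change 1.83 ± 0.24, adjusted p = 5.3e-07). A pair of neighbours were present in all 3 genotypes and lower in Cmnor at 33 and 36 DAP. MELO3C035538.2 stood at 358, 343 and 322 FPKM in WT against 117, 122 and 136 FPKM in Cmnor at 33 DAP (log2 fold change -1.44 ± 0.09, adjusted p = 2.5e-14), and MELO3C002314.2 at 219, 216 and 211 FPKM in WT against 60.9, 57.9 and 68.7 FPKM in Cmnor (log2 fold change -1.77 ± 0.11, adjusted p = 2.7e-14). For both genes the lowest WT library at 33 DAP lay above the highest Cmnor library. MELO3C002314.2 was lower at 39 DAP and after storage too, whereas MELO3C035538.2 stayed below the fold threshold at 39 DAP (log2 fold change -0.99 ± 0.09, adjusted p = 6.9e-11) and after storage (log2 fold change -0.86 ± 0.09, adjusted p = 1.2e-09). MELO3C002315.2 was lower in Cmnor at the 4 stages, with 27.0 ± 5.65 FPKM in WT against 1.10 ± 0.229 FPKM in Cmnor at 33 DAP. The protein kinase gene MELO3C002313.2 inside the run, a different kind of gene, had means of 131 FPKM in WT against 247 FPKM in Cmnor.

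The run of 8 CYP71B-like genes on chromosome 10 (3829641 to 3859785) held 3 genes lower in Cmnor at each of the 4 stages. Its sum at 33 DAP was 242 FPKM in WT, 138 FPKM in CmNOR/Cmnor fruits and 16.4 FPKM in Cmnor. At 36 DAP the run summed to 61.8 FPKM in WT against 61.1 FPKM in CmNOR/Cmnor, at 39 DAP to 83.1 against 123 FPKM, and after storage to 165 against 167 FPKM. None of the 8 genes was called between these genotypes at those stages. The Cmnor sum was 22.3, 22.8 and 54.8 FPKM at the same stages. MELO3C011929.2 and MELO3C011933.2 were called in no comparison. MELO3C011931.2 (CYP71B26-like) had 210.2, 253 and 151 FPKM in WT, 53.7, 89.8 and 35.6 FPKM in CmNOR/Cmnor fruits and 0.348, 0.389 and 0.232 FPKM in Cmnor at 33 DAP. All 3 genotypes were apart, and Cmnor was lower than WT (log2 fold change -7.25 ± 0.31, adjusted p = 1.1e-17). MELO3C011934.2 (CYP71B2-like) and MELO3C011930.2 (CYP71B34-like) were listed at 0 in every Cmnor library at 36 and 39 DAP, while WT held 11.1 ± 0.820 and 3.78 ± 0.124 FPKM at 33 DAP. The call of MELO3C011930.2 at 39 DAP rested on 1 WT library, where the fitted difference in log2(FPKM + 1) was -1.01 ± 0.10, and -0.90 without WT 39 DAP replicate 3. Another member of the run stood higher in Cmnor after storage. MELO3C011928.2 (CYP71B19-like) showed no called difference between WT (22.7, 15.8 and 20.4 FPKM) and Cmnor (12.2, 16.7 and 15.9 FPKM) at 33 DAP, where the libraries overlapped (adjusted p = 0.1), and after storage it was 2.38, 3.59 and 4.10 FPKM in WT against 43.7, 52.3 and 53.1 FPKM in Cmnor (log2 fold change 3.56 ± 0.19, adjusted p = 2.3e-15). In Arabidopsis thaliana the CYP71B subfamily includes an enzyme of camalexin synthesis, and the table gives no role for these melon genes.

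**Figure D3:**
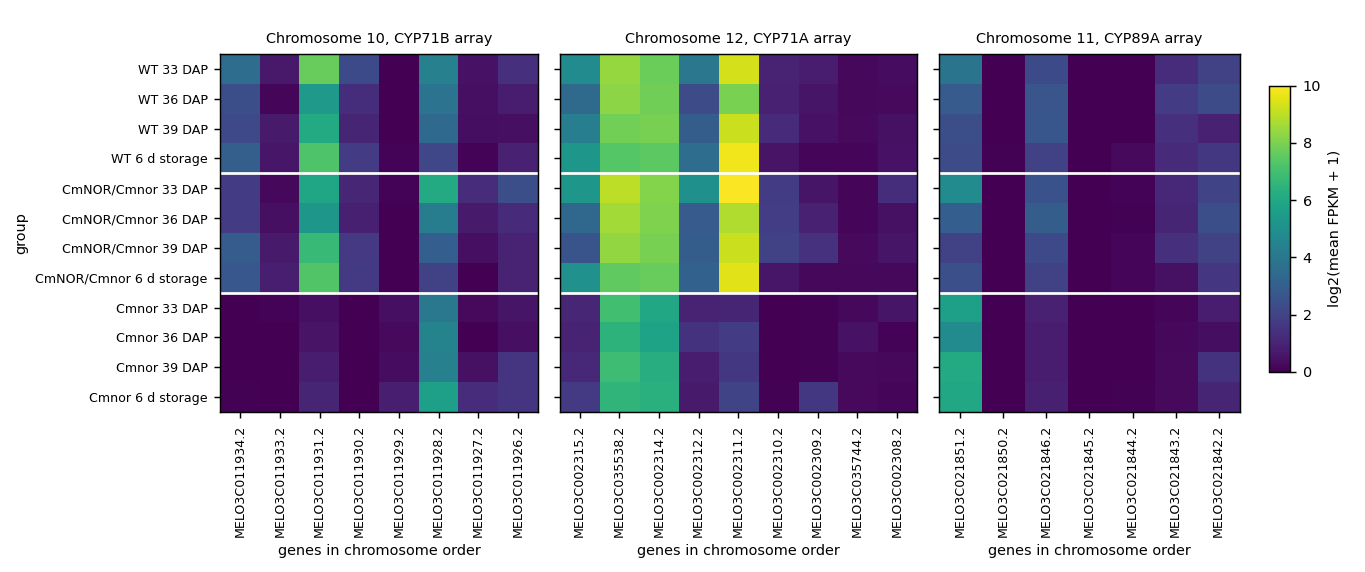
Heat maps of log2(mean FPKM + 1) for the runs of P450 genes on chromosome 10 (8 CYP71B-like genes), chromosome 12 (9 CYP71A1-like genes) and chromosome 11 (7 CYP89A-like genes), with the 12 groups as rows and the genes in chromosome order as columns, dark cells for low and bright cells for high levels. MELO3C011931.2 and MELO3C002311.2 are bright in WT and CmNOR/Cmnor and dark in Cmnor, MELO3C011929.2 is dark in all genotypes, and MELO3C021851.2 is brightest in Cmnor.

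Short gene models on unplaced sequence took part as well. MELO3C000113.2 (CYP71A1-like) had 63.1, 68.0 and 65.6 FPKM in WT against 0.242, 0.0736 and 0.311 FPKM in Cmnor at 33 DAP (log2 fold change -5.79 ± 0.24, adjusted p = 6.8e-18). MELO3C028139.2 (CYP71B37-like) had 29.0, 33.9 and 42.3 FPKM in WT against 0.328, 0.450 and 0.843 FPKM in Cmnor (log2 fold change -4.55 ± 0.43, adjusted p = 3.1e-10). MELO3C000613.2 (CYP71A1-like) scattered among replicates more than any other member at group means of 100 FPKM or more, with 297, 1674 and 103 FPKM in the 3 CmNOR/Cmnor libraries at 33 DAP and 215, 499.8 and 929.7 FPKM in stored WT fruit. Even so its WT libraries at 33 DAP (183, 246 and 159 FPKM) lay above the Cmnor libraries (1.64, 2.74 and 1.75 FPKM; log2 fold change -6.01 ± 0.69, adjusted p = 1.2e-08). The high CmNOR/Cmnor library is also the one with the highest P450 sum of that group. These models span 211 to 859 bases, and at the same level a short model gives fewer fragments.

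**Figure D4:**
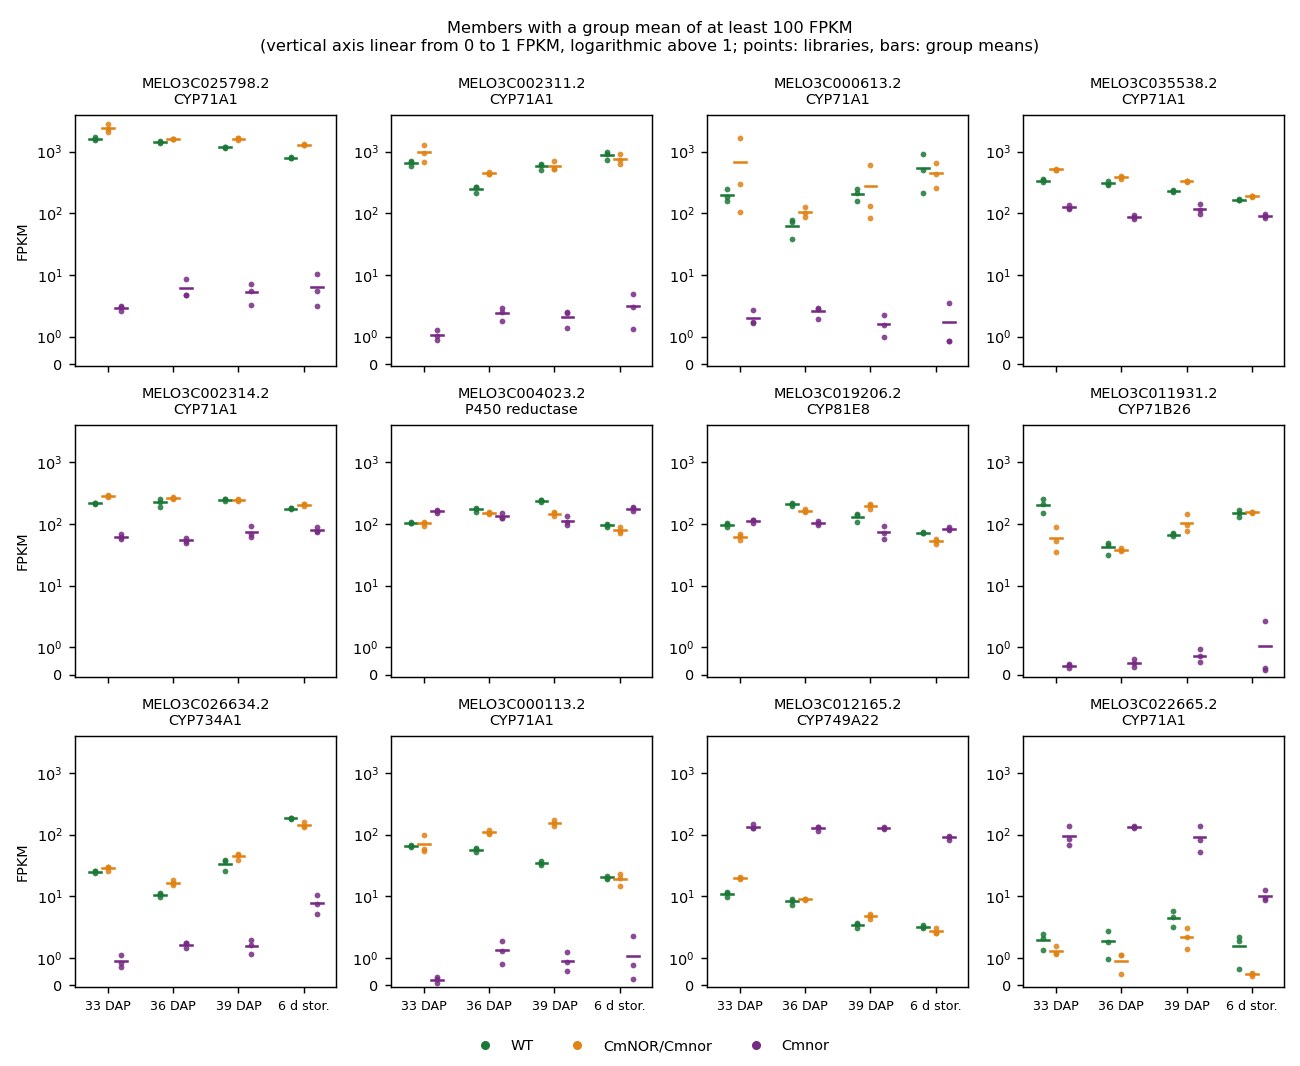
FPKM of the 12 members with a group mean of at least 100 FPKM, in every library, with bars for the group means and a vertical axis that is linear from 0 to 1 and logarithmic above. In the panels of MELO3C025798.2, MELO3C002311.2, MELO3C000613.2, MELO3C011931.2 and MELO3C000113.2 the Cmnor points lie far below those of WT and CmNOR/Cmnor, and in those of MELO3C012165.2 and MELO3C022665.2 far above.

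P450 genes higher in Cmnor came from many families. MELO3C012165.2 (CYP749A22-like, clan 72; chromosome 10, 2262720 to 2266159) was the most abundant, at 11.1, 9.86 and 11.6 FPKM in WT, 18.9, 20.7 and 19.97 FPKM in CmNOR/Cmnor fruits and 127, 148 and 129 FPKM in Cmnor at 33 DAP (log2 fold change 3.52 ± 0.08, adjusted p = 2.2e-23). At 39 DAP WT had 3.40 ± 0.330 FPKM and Cmnor 128 ± 5.44 FPKM (log2 fold change 4.88 ± 0.08, adjusted p = 4.7e-26). CmNOR/Cmnor at 33 DAP lay between the other genotypes, with all 3 libraries above WT, but below the fold threshold (log2 fold change 0.82 ± 0.08, adjusted p = 2.1e-08). MELO3C022665.2 (CYP71A1-like) was the most abundant gene of family 71 that was higher in Cmnor. It had 1.84, 0.956 and 2.76 FPKM in WT against 137, 131 and 129 FPKM in Cmnor at 36 DAP (log2 fold change 5.60 ± 0.31, adjusted p = 2.7e-15), and 10.2 ± 1.99 FPKM in stored Cmnor fruit. MELO3C026494.2 (CYP82D47-like) stood at 11.7, 10.47 and 8.38 FPKM in WT, 27.9, 48.6 and 23.0 FPKM in CmNOR/Cmnor fruits and 58.8, 101 and 62.7 FPKM in Cmnor at 33 DAP, with no overlap between the genotypes (log2 fold change 2.72 ± 0.24, adjusted p = 6.6e-11 for Cmnor). KEGG assigns it to fraxetin hydroxylation, a step of coumarin synthesis in Arabidopsis roots.

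MELO3C022376.2 (CYP89A2-like; chromosome 11, 33260764 to 33262514) was detected almost only in Cmnor, with 0.0176, 0.0626 and 0.0214 FPKM in WT at 33 DAP. In the Cmnor libraries it was at 29.7, 29.6 and 28.2 FPKM at 33 DAP, then at 72.5, 82.5 and 70.9 FPKM at 36 DAP (log2 fold change 4.87 ± 0.15, adjusted p = 1.3e-20 at 33 DAP). The gene lies in a region with 2 other members, MELO3C022372.2 (CYP87A3-like) and MELO3C022375.2 (CYP81E8-like), beside a cucurbitadienol synthase gene, MELO3C022374.2. In cucurbits P450 enzymes oxidise cucurbitadienol to bitter cucurbitacins. The synthase gene was at 0 in all 36 libraries. MELO3C022372.2 reached 1.30 ± 0.182 FPKM in Cmnor at 36 DAP, where it was listed at 0 in all WT libraries and was called higher, and MELO3C022375.2 stayed near 1 FPKM or below. The isoflavone hydroxylase-like gene MELO3C022377.2 on the other side, a P450 by another name and no member, had a mean of 17.0 FPKM in Cmnor at 36 DAP and 0.0084 FPKM in WT. A second CYP89A2-like gene, MELO3C021851.2, was at 4.48, 4.04 and 4.36 FPKM in WT against 81.8, 57.2 and 66.9 FPKM in Cmnor at 39 DAP (log2 fold change 3.70 ± 0.13, adjusted p = 1e-19). It begins the run of 7 family 89 genes on chromosome 11 (6689404 to 6840772), in which MELO3C021846.2 was lower in Cmnor at all stages (at 33 DAP log2 fold change -1.30 ± 0.16, adjusted p = 3.8e-08). Its call after storage rested on 1 library (-1.09 ± 0.16, and -0.95 without WT 6 d storage replicate 1). In Arabidopsis an enzyme of this subfamily oxidises chlorophyll breakdown products.

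Among the genes named CYP72A219, 3 were higher in Cmnor at each stage. MELO3C009864.2 had 3.76, 4.32 and 4.402 FPKM in WT against 49.0, 45.1 and 48.7 FPKM in Cmnor at 39 DAP (log2 fold change 3.24 ± 0.22, adjusted p = 2.9e-13). MELO3C015388.2 was below 0.21 FPKM in every WT library and reached 51.2, 74.6 and 46.0 FPKM in stored Cmnor fruit (log2 fold change 5.78 ± 0.19, adjusted p = 1.7e-20). MELO3C016686.2 was 0.271 FPKM or less in every WT library and at 7.43 ± 0.311 FPKM in stored Cmnor fruit. Its neighbour MELO3C016687.2, of the same name, took the opposite direction, with 8.78, 10.6 and 11.2 FPKM in stored WT fruit and 0.0134, 0.305 and 0.205 FPKM in stored Cmnor fruit (log2 fold change -3.25 ± 0.23, adjusted p = 1e-12). Its log2 fold change in Cmnor at 33 DAP (-1.05 ± 0.23) was -0.82 without WT 33 DAP replicate 2 and -0.93 without Cmnor 33 DAP replicate 1. MELO3C016798.2 (CYP81E8-like) was at 0.202 ± 0.112 FPKM in WT against 6.76 ± 0.207 FPKM in Cmnor at 33 DAP (log2 fold change 2.69 ± 0.11, adjusted p = 6.3e-18). CYP81E enzymes hydroxylate isoflavones in legumes. MELO3C023960.2 (CYP705A5-like) was also higher at the 4 stages but did not exceed 2.69 FPKM.

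Hormone and sterol P450 genes moved in both directions. Brassinosteroids are made by CYP90 and CYP85 enzymes and inactivated by CYP734A1 in Arabidopsis. MELO3C025183.2 (CYP90A1) was higher in Cmnor at all 4 stages, most at 36 DAP, with 3.93, 4.25 and 2.85 FPKM in WT, 5.45, 5.32 and 5.802 FPKM in CmNOR/Cmnor fruits and 59.5, 70.5 and 64.7 FPKM in Cmnor (log2 fold change 3.83 ± 0.10, adjusted p = 2.5e-22). MELO3C022045.2 (CYP85A-like) was 5.23, 4.69 and 4.67 FPKM in WT, 10.3, 17.5 and 10.8 FPKM in CmNOR/Cmnor fruits and 32.3, 58.6 and 31.8 FPKM in Cmnor at 33 DAP (log2 fold change 2.78 ± 0.21, adjusted p = 3.8e-12). The 3 genotypes did not overlap for this gene at 33 DAP. The gene of the inactivating enzyme with the highest level, MELO3C026634.2 (CYP734A1-like; chromosome 2, 18213987 to 18216743), was lower in Cmnor at each stage, with 25.6, 25.6 and 24.1 FPKM in WT against 0.670, 0.817 and 1.13 FPKM in Cmnor at 33 DAP (log2 fold change -3.81 ± 0.16, adjusted p = 9.4e-18). A second copy, MELO3C004527.2, was listed at 0 in all WT libraries at 33, 36 and 39 DAP and stood at 2.58, 2.49 and 2.75 FPKM in Cmnor at 33 DAP, where it was called higher. The third copy, MELO3C003874.2, had 10.7 ± 0.739 and 19.4 ± 1.36 FPKM and stayed below the fold threshold. Of the CYP71A1-like genes that KEGG assigns to a hydroxylase of brassinosteroid synthesis, MELO3C025798.2 was lower and MELO3C022665.2 higher in Cmnor at all 4 stages. MELO3C025797.2 was called against WT at no stage. In the KEGG list of brassinosteroid synthesis, which includes 12 of the members, 7 of 25 tested genes were higher and 4 lower in Cmnor at 33 DAP, and 10 and 4 at 36 DAP, beside 22.8% and 6.37% of all genes at 33 DAP and 22.9% and 6.79% at 36 DAP. The median log2 fold change of the list was 0.33 at 33 DAP and 0.42 at 36 DAP, and that of all genes 0.21 and 0.17.

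MELO3C007140.2 (CYP710A11-like), for the sterol desaturase that makes stigmasterol, was lower in Cmnor at 33 DAP, with 73.6, 64.5 and 59.5 FPKM in WT against 7.23, 6.39 and 6.51 FPKM in Cmnor (log2 fold change -3.11 ± 0.15, adjusted p = 2.3e-16). It was also lower at 36 DAP and after storage, and at 39 DAP the levels were 23.3, 25.0 and 22.3 FPKM in WT against 12.9, 16.3 and 11.04 FPKM in Cmnor, below the fold threshold (log2 fold change -0.78 ± 0.15, adjusted p = 5.6e-05). In the KEGG steroid list, 12 of 38 genes were higher and 2 lower in Cmnor at 33 DAP, beside 22.8% and 6.37% of all genes. The median log2 fold change of the list was 0.60, and that of all genes 0.21. MELO3C020318.2 (CYP716B1-like), of a family of triterpene oxidases, was lower in Cmnor at all stages, at 10.3 ± 1.55 FPKM in WT against 1.96 ± 0.538 FPKM in Cmnor at 33 DAP. In the KEGG list of sesquiterpenoid and triterpenoid synthesis 2 of 35 tested genes were higher and 4 lower at 33 DAP. The share called higher was thus below that of all genes and the share called lower, from 4 genes, above it. The median log2 fold change of the list was 0.0. MELO3C016233.2 (CYP97B2), of a plastid family that includes carotenoid hydroxylases in Arabidopsis, was higher in Cmnor at 39 DAP, at 8.41, 8.01 and 7.09 FPKM in WT against 22.5, 19.1 and 20.05 FPKM in Cmnor (log2 fold change 1.28 ± 0.10, adjusted p = 2.1e-12), and after storage.

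Single genes of jasmonate turnover and strigolactone synthesis were called higher in Cmnor at 1 or more stages. MELO3C026212.2 (CYP94B3), the hydroxylase that starts the turnover of jasmonoyl-isoleucine in Arabidopsis, had 0, 0 and 0.123 FPKM in WT, 0.0158, 0 and 0.0303 FPKM in CmNOR/Cmnor fruits and 13.2, 15.2 and 24.8 FPKM in Cmnor at 36 DAP (log2 fold change 4.13 ± 0.17, adjusted p = 4.3e-18). At 33 DAP the order was the other way, with 1.05, 0.995 and 1.56 FPKM in WT against 0.178, 0.162 and 0.0762 FPKM in Cmnor, short of the fold threshold (log2 fold change -0.94 ± 0.17, adjusted p = 1.8e-05). MELO3C004742.2 (CYP94C1), which acts on the product of CYP94B3, was higher in Cmnor at 39 DAP, with 6.85 ± 0.258 FPKM in WT against 20.03 ± 4.07 FPKM in Cmnor (log2 fold change 1.402 ± 0.17, adjusted p = 4.5e-08). MELO3C009737.2 (CYP94A1-like), named after a fatty acid hydroxylase of vetch (Vicia sativa), was at 1.20, 1.22 and 0.990 FPKM in WT against 8.34, 7.88 and 9.57 FPKM in Cmnor at 33 DAP (log2 fold change 2.16 ± 0.13, adjusted p = 1.3e-14). MELO3C016879.2 (CYP711A1), the enzyme that oxidises carlactone in strigolactone synthesis, reached 3.81, 7.16 and 6.83 FPKM in Cmnor at 36 DAP and was below 0.03 FPKM in every WT library (log2 fold change 2.74 ± 0.14, adjusted p = 3.5e-16). The same gene was at 0.533 ± 0.0997 FPKM in Cmnor at 33 DAP. The summed phloem protein level in Cmnor was also highest at 36 DAP, at 10147 to 11453 FPKM against 65.7 to 90.3 FPKM in WT, and its part in these levels was not tested.

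In Arabidopsis CYP78A5 and its relatives promote the growth of organs and seeds, and 2 of the 5 melon genes of family 78 were called in both directions over the stages. MELO3C011413.2 (CYP78A5) had 0.673, 0.815 and 0.837 FPKM in WT against 1.05, 1.46 and 1.29 FPKM in Cmnor at 33 DAP, without overlap but not past the test (adjusted p = 0.064). At 39 DAP WT had 15.1, 12.4 and 12.6 FPKM, CmNOR/Cmnor 1.96, 1.37 and 1.77 FPKM and Cmnor 0.244, 0.303 and 0.541 FPKM, with all 3 genotypes apart (log2 fold change -3.40 ± 0.16, adjusted p = 1.6e-16 for Cmnor). MELO3C020975.2 (CYP78A7) was higher in Cmnor at 33 DAP (0.499, 0.662 and 0.734 FPKM in WT against 2.71, 2.85 and 2.57 FPKM in Cmnor; log2 fold change 1.19 ± 0.15, adjusted p = 1e-07) and lower at 36 DAP (4.18, 4.22 and 7.42 FPKM in WT against 0.118, 0.145 and 0.374 FPKM in Cmnor; log2 fold change -2.34 ± 0.15, adjusted p = 1.3e-13). MELO3C022246.2 (CYP78A9-like) was higher at 33 DAP and after storage and lower at 39 DAP, and MELO3C026488.2 (CYP82A3-like) was lower at 33 DAP and higher after storage. The call of MELO3C020975.2 after storage (1.01 ± 0.15) was 0.94 without WT 6 d storage replicate 2 and 0.89 without Cmnor 6 d storage replicate 3. These are the 3 members called in both directions against WT.

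Heterozygous fruits differed from WT in few P450 genes at both thresholds, and in more by an adjusted p alone (limma). At 33 DAP 5 members were higher and 4 lower in CmNOR/Cmnor, or 7.63% of 118, where 2.86% of all genes were called, 1.88% as higher and 0.98% as lower. At 36 DAP 3 were higher and 3 lower (2.28% of all genes called, 1.06% higher and 1.22% lower), at 39 DAP 6 and 2 (3.41%, 1.04% higher and 2.38% lower), and after storage none was higher and 1 lower (1.36%, 0.454% higher and 0.904% lower), with 20 members under an unadjusted p of 0.05 in limma. The 4 lower genes at 33 DAP were all CYP71B-like, namely MELO3C011931.2, MELO3C011934.2, MELO3C011930.2 and MELO3C028139.2. MELO3C011934.2 had 10.3, 11.9 and 10.9 FPKM in WT and 2.52, 1.99 and 2.50 FPKM in CmNOR/Cmnor at 33 DAP (log2 fold change -1.86 ± 0.10, adjusted p = 2.7e-13), and at 39 DAP 3.94, 3.21 and 3.86 FPKM in WT and 6.32, 5.86 and 7.37 FPKM in CmNOR/Cmnor. MELO3C011931.2 was lower at 33 DAP (log2 fold change -1.83 ± 0.31, adjusted p = 6.3e-05), and a fit of the 6 compared libraries alone gave an adjusted p = 0.054. For all 4 genes the change from the difference at 33 DAP to that at 39 DAP was past the thresholds (for MELO3C011934.2 2.54 ± 0.15, adjusted p = 1.3e-12). The genes were chosen by their calls at 33 DAP, and the same 33 DAP libraries enter this change. Across the members this difference of differences was called in 15, 9 upward and 6 downward, where 5.03% of all genes were called, 1.71% upward and 3.32% downward.

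In the same run on chromosome 10, MELO3C011928.2 took the opposite course in heterozygous fruits. At 33 DAP it was at 61.0, 84.5 and 61.6 FPKM in CmNOR/Cmnor against 22.7, 15.8 and 20.4 FPKM in WT, with no overlap (log2 fold change 1.76 ± 0.19, adjusted p = 1.2e-07), and at 39 DAP at 6.03, 6.98 and 7.76 FPKM in CmNOR/Cmnor against 11.7, 9.75 and 8.001 FPKM in WT. MELO3C007590.2 (CYP81E8-like) was also higher at 33 DAP, with 42.6, 41.9 and 48.5 FPKM in CmNOR/Cmnor, 18.5, 11.7 and 16.4 FPKM in WT against 1.08, 0.693 and 0.906 FPKM in Cmnor (log2 fold change 1.47 ± 0.18, adjusted p = 8.7e-07 against WT). It thus lay above both homozygous genotypes. MELO3C022045.2 (CYP85A-like) was higher at 33 DAP by 1.21 ± 0.21 on the log2 scale, a value that was 0.98 without CmNOR/Cmnor 33 DAP replicate 2. MELO3C011926.2 (CYP71B37-like) was higher by 1.02 ± 0.17, and by 0.99 without WT 33 DAP replicate 3 and 0.89 without CmNOR/Cmnor 33 DAP replicate 2.

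MELO3C026494.2 (CYP82D47-like) was the one member higher in CmNOR/Cmnor at 3 stages. At 39 DAP it had 2.58, 2.08 and 2.22 FPKM in WT, 12.1, 10.4 and 9.11 FPKM in CmNOR/Cmnor fruits and 64.9, 47.2 and 57.7 FPKM in Cmnor (log2 fold change 1.80 ± 0.24, adjusted p = 1.5e-06 for CmNOR/Cmnor). All 3 genotypes were apart at 39 DAP. At 36 DAP its difference of 1.11 ± 0.24 was 0.82 without WT 36 DAP replicate 2, below the fold threshold. MELO3C000113.2 (CYP71A1-like) was above WT at 39 DAP, with 169, 139 and 155 FPKM in CmNOR/Cmnor against 34.7, 37.4 and 32.0 FPKM in WT (log2 fold change 2.12 ± 0.24, adjusted p = 1.5e-07), while the 2 genotypes overlapped at 33 DAP. MELO3C002315.2 (CYP71A1-like) was lower at 39 DAP, with 5.22, 4.48 and 5.43 FPKM in CmNOR/Cmnor against 18.7, 19.3 and 17.3 FPKM in WT (log2 fold change -1.69 ± 0.18, adjusted p = 4e-08). MELO3C026488.2 (CYP82A3-like) was at 1.30, 1.61 and 1.47 FPKM in CmNOR/Cmnor against 0.0902, 0.0742 and 0.0629 FPKM in WT at 39 DAP (log2 fold change 1.19 ± 0.15, adjusted p = 4.4e-07).

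MELO3C011413.2 (CYP78A5) was lower in heterozygous fruits at 3 stages. At 36 DAP it had 5.93, 11.1 and 6.14 FPKM in WT and 1.44, 1.17 and 1.19 FPKM in CmNOR/Cmnor (log2 fold change -1.90 ± 0.16, adjusted p = 3e-09). At 39 DAP the log2 fold change was -2.41 ± 0.16 (adjusted p = 1.7e-11). After storage the levels were 6.0005, 4.48 and 4.59 FPKM in WT and 1.95, 2.09 and 1.31 FPKM in CmNOR/Cmnor, the only call of that comparison (log2 fold change -1.12 ± 0.16, adjusted p = 2.7e-05). That value was -0.99 without CmNOR/Cmnor 6 d storage replicate 3, and in limma with the 6 compared libraries alone its adjusted p was 0.062, which left no member called. MELO3C020975.2 (CYP78A7) was lower at 36 DAP, with 0.497, 0.463 and 0.578 FPKM in CmNOR/Cmnor against 4.18, 4.22 and 7.42 FPKM in WT (log2 fold change -2.01 ± 0.15, adjusted p = 2.8e-10). MELO3C022246.2 (CYP78A9-like) had a log2 fold change of -1.05 ± 0.20, which was -0.90 without WT 36 DAP replicate 3 and -0.96 without CmNOR/Cmnor 36 DAP replicate 3. MELO3C026824.2 (CYP714A1-like), of a family that inactivates gibberellins in Arabidopsis, was higher at 36 DAP, at 2.12, 2.79 and 1.48 FPKM in CmNOR/Cmnor against 0.619, 0.341 and 0.154 FPKM in WT (log2 fold change 1.18 ± 0.19, adjusted p = 4.2e-05).

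The remaining heterozygote calls were near the fold threshold or scattered. MELO3C004801.2 (CYP71A1-like) was higher at 39 DAP (5.92 ± 1.08 FPKM in CmNOR/Cmnor against 2.09 ± 0.304 FPKM in WT; log2 fold change 1.16 ± 0.17, adjusted p = 5.8e-06). MELO3C021842.2 (CYP89A2-like) was higher at 39 DAP by 1.03 ± 0.14, which was 0.94 without WT 39 DAP replicate 2 and 0.96 without CmNOR/Cmnor 39 DAP replicate 3. MELO3C027907.2 (CYP71A1-like, 443 bases on unplaced sequence) was higher at 36 and 39 DAP, with 17.8, 6.75 and 5.05 FPKM in CmNOR/Cmnor against 2.34, 2.26 and 1.76 FPKM in WT at 39 DAP (log2 fold change 1.62 ± 0.50, adjusted p = 0.018). Leaving out WT replicate 3 or CmNOR/Cmnor replicate 1 at 39 DAP raised its adjusted p to 0.061 and 0.14 (limma). At 36 DAP its adjusted p of 0.037 rose to 0.073 to 0.13 without WT replicate 2 or 3 or without any of the 3 CmNOR/Cmnor libraries. Against the heterozygote, Cmnor had 22 members higher and 27 lower at 33 DAP (28.6% of all genes called, 22.7% higher and 5.96% lower), 24 and 21 at 36 DAP (28.8%, 22.4% and 6.42%), 22 and 23 at 39 DAP (28.5%, 21.2% and 7.39%), and 29 and 20 after storage (29.8%, 23.5% and 6.33%).

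Storage for 6 d changed 22 members in WT, 10 up and 12 down, where 8.29% of all genes were called, 3.99% up and 4.3% down. In CmNOR/Cmnor 7 rose and 12 fell (7.9% of all genes called, 2.76% up and 5.14% down), and in Cmnor 15 rose and 10 fell (12.1%, 5.52% up and 6.61% down). Stored fruits were also 6 d older than those of 36 DAP, and the part of age in these changes was not tested. MELO3C026634.2 (CYP734A1-like) rose most of all members in WT and CmNOR/Cmnor. It went from 11.3, 9.72 and 10.7 to 178, 186 and 184 FPKM in WT (log2 fold change 3.99 ± 0.16, adjusted p = 1.1e-16), from 18.3, 14.9 and 16.3 to 136, 132 and 159 FPKM in CmNOR/Cmnor (log2 fold change 3.03 ± 0.16, adjusted p = 2.1e-14), and from 1.43, 1.74 and 1.73 to 5.16, 10.52 and 7.42 FPKM in Cmnor (log2 fold change 1.68 ± 0.16, adjusted p = 1.2e-09). No stored library overlapped with those of 36 DAP in any genotype. The rise was smaller in Cmnor than in WT, with a difference of -2.31 ± 0.23 on the log2 scale (Cmnor minus WT, adjusted p = 3e-09). Beside it, MELO3C025183.2 (CYP90A1) was lower after storage than at 36 DAP in all 3 genotypes, in WT from 3.68 ± 0.732 to 0.992 ± 0.152 FPKM (log2 fold change -1.22 ± 0.10, adjusted p = 1.1e-10) and in Cmnor from 64.9 ± 5.50 to 19.5 ± 2.12 FPKM (log2 fold change -1.69 ± 0.10, adjusted p = 5.8e-14). Without storage, the sum of the 2 genes of family 90, nearly all from this gene, went from 65.0 FPKM at 36 DAP to 15.5 FPKM at 39 DAP in Cmnor. It went from 5.54 to 2.31 FPKM in CmNOR/Cmnor and from 3.69 to 3.03 FPKM in WT. The CYP85A-like gene MELO3C022045.2 fell in WT and CmNOR/Cmnor.

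Other genes rose in stored WT fruit and remained low in Cmnor. MELO3C011931.2 (CYP71B26-like) went from 48.9, 31.1 and 45.4 to 130.5, 152 and 169.6 FPKM in WT (log2 fold change 1.84 ± 0.31, adjusted p = 1.9e-05), and MELO3C016687.2 (CYP72A219-like) from 0.907 ± 0.446 to 10.2 ± 1.26 FPKM (log2 fold change 2.57 ± 0.23, adjusted p = 8.4e-10). MELO3C000613.2 went from 71.5, 77.002 and 38.97 to 215, 499.8 and 929.7 FPKM (log2 fold change 2.93 ± 0.69, adjusted p = 0.001), and its call in CmNOR/Cmnor (2.04 ± 0.69) was lost in limma without CmNOR/Cmnor 36 DAP replicate 1 or 2 or stored replicate 1, with an adjusted p of 0.064, 0.05 and 0.096. MELO3C019206.2 (CYP81E8-like), abundant in all genotypes, fell in WT from 197, 209 and 222 to 70.9, 70.9 and 72.8 FPKM (log2 fold change -1.53 ± 0.12, adjusted p = 3.2e-11) and in CmNOR/Cmnor (log2 fold change -1.63 ± 0.12, adjusted p = 8e-12), while Cmnor went from 104 ± 6.72 to 82.99 ± 4.25 FPKM (adjusted p = 0.026), below the fold threshold. MELO3C010452.2 (CYP81D1-like) rose in all 3 genotypes, to 3.21 ± 0.396 FPKM in CmNOR/Cmnor. Its log2 change was 1.08 ± 0.12 in WT, and 0.9998 without WT 6 d storage replicate 3. In Cmnor it was 1.01 ± 0.12, and 0.92 without Cmnor 36 DAP replicate 1, 0.93 without Cmnor 6 d storage replicate 1 and 0.96 without Cmnor 6 d storage replicate 3. MELO3C018259.2 (CYP82D47-like) fell in all 3 genotypes, in Cmnor from 11.1 ± 2.27 to 2.81 ± 0.220 FPKM. Its change in CmNOR/Cmnor (-1.07 ± 0.13) was -0.98 without CmNOR/Cmnor 36 DAP replicate 3.

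The storage change differed between Cmnor and WT in 36 members, 19 more upward and 17 more downward in Cmnor, where 18.1% of all genes were called, 8.55% upward and 9.51% downward. The 10 members that fell in stored Cmnor fruit included several called higher in Cmnor at 36 DAP. Both results use the same Cmnor libraries of 36 DAP and are not independent. MELO3C022376.2 (CYP89A2-like) went from 72.5, 82.5 and 70.9 to 2.44, 1.15 and 1.10 FPKM (log2 fold change -4.93 ± 0.15, adjusted p = 6.7e-20), and the CYP94B3 gene MELO3C026212.2 from 13.2, 15.2 and 24.8 to 0.109, 0 and 0.0139 FPKM (log2 fold change -4.12 ± 0.17, adjusted p = 2.2e-17). MELO3C026260.2 (CYP71A22-like) went from 13.4, 15.4 and 14.5 to 0.165, 0.180 and 0.118 FPKM and was listed at 0 in the 6 WT libraries of these stages. MELO3C022665.2 fell from 137, 131 and 129 to 12.5, 9.43 and 8.74 FPKM (log2 fold change -3.58 ± 0.31, adjusted p = 1.2e-10), with WT at 1.85 ± 0.902 and 1.55 ± 0.858 FPKM. Other genes rose in stored Cmnor fruit. MELO3C026494.2 went from 10.7, 12.2 and 15.9 to 79.8, 82.02 and 79.1 FPKM in Cmnor (log2 fold change 2.56 ± 0.24, adjusted p = 6.3e-10) and from 2.63, 0.867 and 2.18 to 0.614, 0.907 and 1.46 FPKM in WT. MELO3C011928.2 rose in Cmnor by 1.19 ± 0.19 and fell in WT by 1.70 ± 0.19 on the log2 scale.

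MELO3C026824.2 (CYP714A1-like) was at 0.189, 0 and 0 FPKM in Cmnor at 36 DAP and 3.08, 5.20 and 7.02 FPKM after storage, and MELO3C020975.2 (CYP78A7) went from 0.118, 0.145 and 0.374 to 2.15, 1.79 and 2.80 FPKM in Cmnor. The latter fell in WT from 4.18, 4.22 and 7.42 to 0.706, 0.467 and 0.650 FPKM. MELO3C026495.2 (CYP82D47-like) rose in Cmnor from 0.195 ± 0.102 to 6.34 ± 1.97 FPKM. Other gene groups also differed between 36 DAP and storage, but not each of them in every genotype. The summed level of 39 heat shock protein genes was 4030.2 to 10099.7 FPKM in WT at 36 DAP and 937 to 2874 FPKM in WT of other stages, and in Cmnor it was 1756 to 2065 FPKM at 36 DAP and 1749 to 1874 FPKM after storage. The phloem protein sum in Cmnor went from 10147 to 11453 FPKM at 36 DAP to 2577 to 2876 FPKM after storage, and in WT it was 61.8 to 90.3 FPKM in both groups. The sum of 28 epidermis and cuticle genes, of which 5 to 9 were at 0 in each of these groups, went from 22.7 to 37.4 FPKM at 36 DAP to 171 to 287 FPKM after storage in WT and from 24.5 to 26.8 to 92.7 to 111 FPKM in CmNOR/Cmnor. In Cmnor it was 134 to 160 FPKM at 36 DAP and 97.4 to 101 FPKM after storage. The part of these groups in the storage results was not tested.

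**Figure D5:**
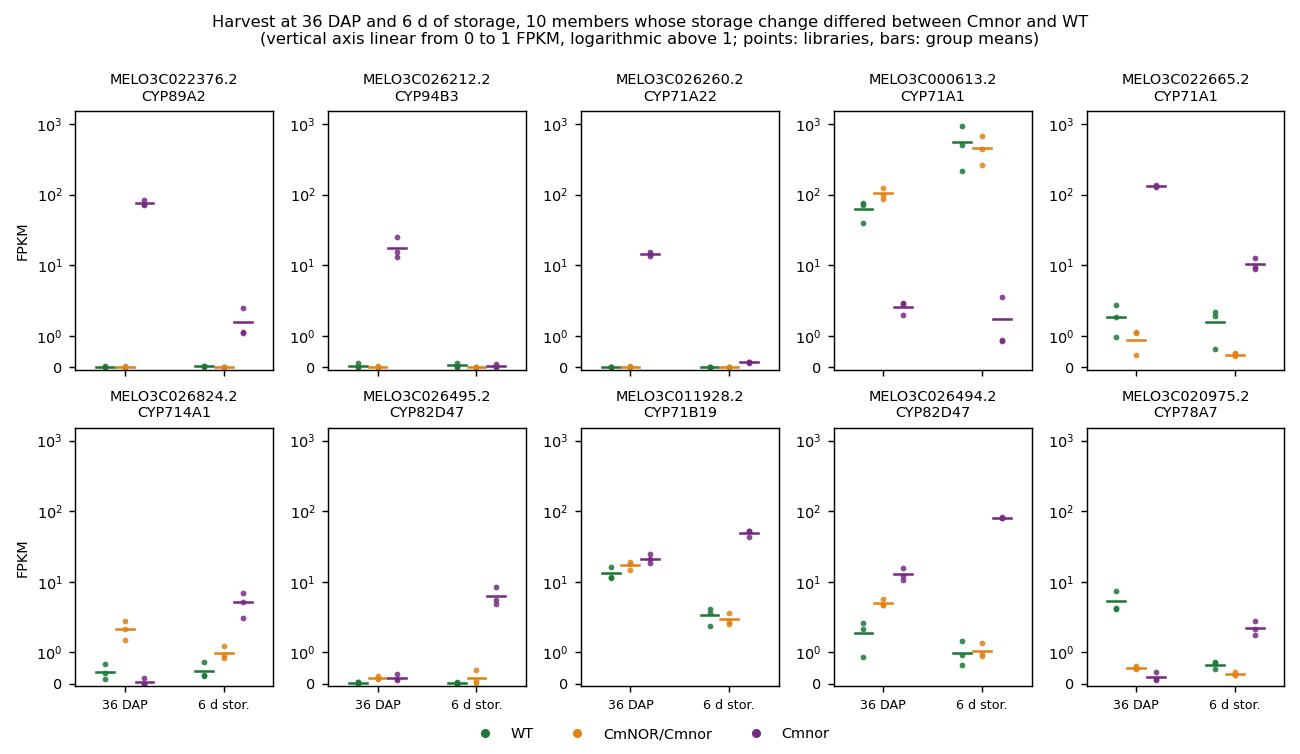
FPKM at 36 DAP and after 6 d of storage for 10 members whose storage change differed between Cmnor and WT, in every library, with bars for the group means and a vertical axis that is linear from 0 to 1 and logarithmic above. The Cmnor points of MELO3C022376.2 and MELO3C026212.2 drop and those of MELO3C026494.2 and MELO3C011928.2 climb, while the WT points of the last gene drop.

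Between 33 and 39 DAP most changes in WT and CmNOR/Cmnor were decreases. In WT 3 members rose and 16 fell (7.02% of all genes called, 3.67% as higher and 3.35% as lower), in CmNOR/Cmnor 5 rose and 17 fell (8.28%, 3.37% higher and 4.91% lower), and in Cmnor 2 rose and 3 fell (6.52%, 2.9% higher and 3.63% lower). Without Cmnor 39 DAP replicate 2 or replicate 3 the count in Cmnor was 9 in place of 5. The difference between genotypes in these counts was not tested. MELO3C007590.2 (CYP81E8-like) fell from 18.5, 11.7 and 16.4 to 1.21, 1.32 and 1.47 FPKM in WT (log2 fold change -2.80 ± 0.18, adjusted p = 2.2e-12) and from 42.6, 41.9 and 48.5 to 1.85, 0.983 and 1.74 FPKM in CmNOR/Cmnor (log2 fold change -4.18 ± 0.18, adjusted p = 5e-16). In Cmnor it stayed at 0.892 ± 0.192 and 1.01 ± 0.0818 FPKM. MELO3C007592.2, of the same name on chromosome 8, fell in WT from 39.7 ± 6.29 to 12.9 ± 0.137 FPKM and was at 44.3 ± 2.53 and 72.7 ± 21.3 FPKM in Cmnor, where its 39 DAP libraries spread from 52.6 to 94.9 FPKM. MELO3C026488.2 (CYP82A3-like) fell in WT from 12.7, 10.8 and 9.005 to 0.0902, 0.0742 and 0.0629 FPKM (log2 fold change -3.45 ± 0.15, adjusted p = 5e-16). The 3 members that rose in WT were MELO3C011413.2, MELO3C020975.2 and the reductase MELO3C004023.2. The 2 that rose in Cmnor were the CYP94 genes MELO3C026212.2 and MELO3C004742.2.

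Between WT and Cmnor, the sum of the reductases that supply P450 enzymes with electrons differed less than the P450 sum at each stage. Over the WT stages the reductase sum ran from 138 to 306 FPKM and the P450 sum from 2877 to 3830 FPKM. MELO3C017461.2 had 65.4, 45.8 and 58.0 FPKM in WT against 73.4, 67.4 and 78.6 FPKM in Cmnor at 33 DAP and was called against WT in neither mutant genotype at any stage. MELO3C004023.2 rose in WT from 105, 102 and 108 FPKM at 33 DAP to 241, 246 and 231 FPKM at 39 DAP (log2 fold change 1.18 ± 0.10, adjusted p = 3e-10). At 39 DAP Cmnor had 137, 96.3 and 108 FPKM, below all WT libraries (log2 fold change -1.08 ± 0.10, adjusted p = 2.1e-10), and without Cmnor 39 DAP replicate 2 the log2 fold change was -0.97. After storage WT had 95.0 ± 5.01 and Cmnor 177 ± 13.2 FPKM, below the fold threshold. The sum of both reductases was 161 ± 11.95 FPKM in WT against 234 ± 13.9 FPKM in Cmnor at 33 DAP. It was 212 ± 17.7 FPKM against 200.2 ± 20.4 FPKM at 36 DAP, 306 ± 1.98 FPKM against 192 ± 21.4 FPKM at 39 DAP and 138 ± 18.8 FPKM against 255 ± 17.1 FPKM after storage, so that WT had the higher sum at 39 DAP and Cmnor at 33 DAP and after storage, each without overlap between libraries. Of 7 genes for cytochrome b5, an alternative electron donor, 1 was higher and none lower in Cmnor at 33 DAP, and 2 were higher at 36 DAP. Of 17 P450 genes described by other names, such as the gibberellin enzyme ent-kaurene oxidase, 7 were higher and none lower at 33 DAP. Of the 28 P450 genes left out by their KEGG pathway 1 was higher and 2 were lower at 33 DAP. Among all genes tested, 22.8% were higher and 6.37% lower in Cmnor at 33 DAP, and 22.9% and 6.79% at 36 DAP.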

How the data were processed

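RNA of melon flesh was sequenced in 36 libraries of 12 groups. The authors mapped reads with HISAT2 against melon genome DHL92 v3.6.1, and the deposited table holds their FPKM values for each gene and library with its annotation. The labels also name TopHat2, StringTie and Cufflinks, with no version or role, and the counting tool, strand setting and treatment of shared reads are given nowhere in the sources used. Raw counts were not used here, so that count models could not be applied. The 220 of 25121 named genes with no signal in any library were left out, which left 24901 to test.

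Values were taken as log2(FPKM + 1) and fitted with limma 3.58.1 (trend) in R 4.3.3 over 12 groups without covariates, with 24 residual and 26.15 total degrees of freedom. P-values were Benjamini-Hochberg adjusted over all genes within each of 20 comparisons. For a call the adjusted p had to be under 0.05 and the log2 fold change 1 or more in size. Tables and plots were made with Python 3.11.15, pandas 2.3.3, numpy 2.4.6 and matplotlib 3.10.9. The fit was tested on simulated data. Depth per library was estimated from the steps between low FPKM values and is approximate.

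The members and gene lists were chosen with earlier results of these data known. Genes to name were, per comparison, the 5 highest and 5 lowest called fold changes with a mean of at least 1 FPKM in the higher group, the 20 members with the highest group mean, the top member of each family, both reductases and array members, which gave 96 genes, of which a part is described. Other members, namely those at every stage, in hormone roles or among the few calls of a comparison, were named after their values were seen. Cytochrome b561 genes, caught at first by the search for cytochrome b5, were removed from that list after its counts had been seen.

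The labels do not state a pairing of libraries, and it was looked for in the deviations of same-numbered libraries from their group means. For Cmnor against CmNOR/Cmnor at 33 DAP same-numbered libraries deviated together (r = 0.363, 0.717 and 0.385 over 15407 genes), and in the others at least 1 of the 3 correlations was 0.05 or lower. Alternatives were a pseudocount of 0.1 FPKM, a filter of 1 FPKM in 3 libraries (17813 genes), scaling to the same upper quartile or median, the replicate block, an adjusted p alone or under 0.01, a fit of the compared libraries only, and leaving out each library. A fit with replicate 2 of each mutant genotype at 33 DAP removed, and one with the block in the compared libraries only, were chosen after seeing the data.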

Additional observations from a re-analysis of the deposited data

Results flagged for a closer look

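The storage change differed between Cmnor and WT, by a test of the difference itself, in 36 P450 genes. On the log2 scale the change in Cmnor was lower than in WT for MELO3C022376.2 (-4.97), MELO3C026212.2 (-4.14), MELO3C026260.2 (-3.74), MELO3C000613.2 (-3.44) and MELO3C022665.2 (-3.41). It was higher for MELO3C020975.2 (3.34), MELO3C026494.2 (3.06), MELO3C011928.2 (2.89), MELO3C026495.2 (2.61) and MELO3C026824.2 (2.43). The WT libraries at 36 DAP, which enter each of these differences, had a summed heat shock level of 4030.2 to 10099.7 FPKM, and its part in them was not tested.

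The difference between CmNOR/Cmnor and WT changed from 33 to 39 DAP in 15 P450 genes, by a test of that change. It shifted upward for MELO3C011934.2 (2.54), MELO3C028139.2 (2.47), MELO3C011931.2 (2.42), MELO3C000113.2 (2.07) and MELO3C026488.2 (1.96). It shifted downward for MELO3C011928.2 (-2.20), MELO3C002315.2 (-2.19), MELO3C011413.2 (-2.01), MELO3C021851.2 (-1.46) and MELO3C007590.2 (-1.38).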

How the results depend on the processing

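None of the 176 results for single named genes changed sign under the alternatives, and no called member did so when 1 library was left out. Direction was not checked for other members or for the counts. Without the fold threshold, an adjusted p alone (limma) called 73, 72, 73 and 76 members in Cmnor against WT at 33, 36 and 39 DAP and after storage. In CmNOR/Cmnor against WT it called 34, 28, 30 and 7 members, and in Cmnor against CmNOR/Cmnor 79, 74, 78 and 74. For storage it called 42 in WT, 45 in CmNOR/Cmnor and 56 in Cmnor, for 39 against 33 DAP 47, 48 and 43, for the genotype difference in storage change 62, and for the stage difference in the heterozygote effect 30. A pseudocount of 0.1 FPKM, which widens fold changes of low genes, gave 72, 64 and 65 calls for Cmnor against WT at 33, 36 and 39 DAP, and 23, 11, 16 and 5 for CmNOR/Cmnor against WT at the 4 stages. It gave 70 and 72 for Cmnor against CmNOR/Cmnor at 36 and 39 DAP, 34 and 42 for storage in CmNOR/Cmnor and Cmnor, 30, 38 and 27 for 39 against 33 DAP in WT, CmNOR/Cmnor and Cmnor, and 25 for the stage difference in the heterozygote effect. The share of all genes called was not computed under these alternatives, so these counts cannot be set against the shares given above. The single call in stored CmNOR/Cmnor fruit was 0 with only the libraries compared and 2 with the same median in each library. Other counts stayed within 1.5 times of those given.

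Leaving out 1 library at a time gave 46 to 48, 41 to 42, 42 to 47 and 46 to 48 calls for Cmnor against WT at the 4 stages, 9 to 11, 4 to 7, 7 to 9 and 0 to 3 for CmNOR/Cmnor against WT, and 48 to 50, 42 to 45, 43 to 47 and 47 to 49 for Cmnor against CmNOR/Cmnor. The ranges were 20 to 22, 18 to 21 and 23 to 26 for storage, 17 to 21, 21 to 25 and 5 to 9 for 39 against 33 DAP, 34 to 37 for the genotype difference in storage change and 15 to 18 for the stage difference in the heterozygote effect. The count of 0 came without CmNOR/Cmnor 6 d storage replicate 3 and that of 3 without WT 6 d storage replicate 2, and the count of 9 without Cmnor 39 DAP replicate 2 or 3.

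With the replicate block all 20 counts were those given, for example 47 in Cmnor against WT and 49 in Cmnor against CmNOR/Cmnor at 33 DAP. In the latter comparison same-numbered libraries deviated together, and the block in those 6 libraries alone gave 48. Of 176 results for single named genes, 4 were lost with only the libraries compared, 3 at an adjusted p under 0.01 and 2 with a pseudocount of 0.1 FPKM. Of the 54 such results at 33 DAP, 2 were lost without replicate 2 of both mutant genotypes. The 44 members with no group mean of 1 FPKM could not reach a log2 difference of 1 between groups on the log2(FPKM + 1) scale, whatever their fold change.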
